A study of Arabidopsis thaliana with 18 samples.

Results

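Polysomal RNA of gcn2 seedlings was compared with polysomal RNA of wild-type seedlings. The 6 arrays whose titles name the polysome fraction, 3 from gcn2 and 3 from wild type, were taken out of 18 arrays in all. Both groups were Arabidopsis thaliana of the line Landsberg erecta, which carries the erecta mutation, and the aerial parts of seedlings 10 days old were used. The tested plants carried gcn2, an allele the labels do not specify further, and the other plants are labelled wild type. Both genotypes were grown in long days (16 h of fluorescent light, about 80 µmol m-2 s-1, 22 °C) on agar plates (0.8%) that contained 1% sucrose, and the labels name no stress treatment. They were frozen 4 h after the lights came on. Lysates were spun through sucrose gradients, and the 6 bottom fractions were pooled as polysomal RNA. The remaining 12 arrays hold the pooled 6 top fractions (non-polysomal RNA) and unfractionated total RNA of the same genotypes, again 3 arrays a group.

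GCN2 is a protein kinase that binds uncharged transfer RNA and phosphorylates the alpha subunit of the initiation factor eIF2. Phosphorylated eIF2 slows the start of translation, and in yeast it also raises the translation of a transcription factor for amino acid synthesis through upstream open reading frames. In plants the kinase is known to be activated by herbicides that block amino acid synthesis, by wounding and by other stresses. A transcript's signal in polysomal RNA depends on how much of the transcript there is and on how much of it carries several ribosomes.

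All values are log2 signals of Affymetrix ATH1 probe sets as the authors deposited them, and every difference is gcn2 minus wild type on the log2 scale. The array medians ran from 5.05 to 5.18, and the lower quartiles, used here as a mark of dim signal, from 3.21 to 3.52. Arrays correlated at 0.982 to 0.991 within gcn2 polysomal RNA and at 0.984 to 0.993 within wild-type polysomal RNA. The BioB and BioC hybridization controls averaged 9.31 ± 0.21 in gcn2 and 9.06 ± 0.38 in wild type, and the 3′ over 5′ excess of the control transcripts was 2.99 ± 0.28 in gcn2 and 2.91 ± 0.16 in wild type (SD, n = 3 each). Nuclear photosynthesis genes, the markers of aerial tissue, had mean levels of 8.59 to 13.4 in gcn2 and 7.77 to 13.5 in wild type. The labels do not say that replicates were separate cultures, so every p-value reflects only how far these samples spread, which may be technical. The transcripts of GCN2 and ERECTA were not analysed here, so none checks the genotype labels. Each array has a fixed overall signal, and in these bulk extracts fewer cells of a type cannot be told apart from less RNA per cell.

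The comparison was fitted in limma on the 12 fraction arrays with the replicate number as a block, because arrays of equal number deviated together, and p-values were adjusted over all 22746 tested probe sets by the Benjamini-Hochberg method. At an unadjusted limma p under 0.05 there were 2400 probe sets, against about 1137 expected by chance if none differed. At an adjusted p under 0.05, 127 probe sets (0.558%) differed between gcn2 and wild-type polysomal RNA. Of these, 67 (0.295% of those tested) were higher in gcn2 and 60 (0.264%) were lower. All 127 had the same sign in the 3 replicate pairs. In 104 of them the 3 gcn2 values did not overlap the 3 wild-type values, against 3068 (13.5%) of all tested probe sets. The differences ran from 3.69 to -1.58, and 33 of the higher and 14 of the lower probe sets changed by at least 2-fold. The transcripts that were higher in gcn2 were dimmer than those that were lower, with median levels over the 6 arrays of 5.46 and 7.53, against 5.09 over all tested probe sets. In 11 of the 67 higher probe sets the wild-type mean lay under the lower quartile of every array, so those fold changes start from near background. The platform annotation gave a single gene to 67 of the 127 probe sets, 40 higher and 27 lower.

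**Figure D1:**
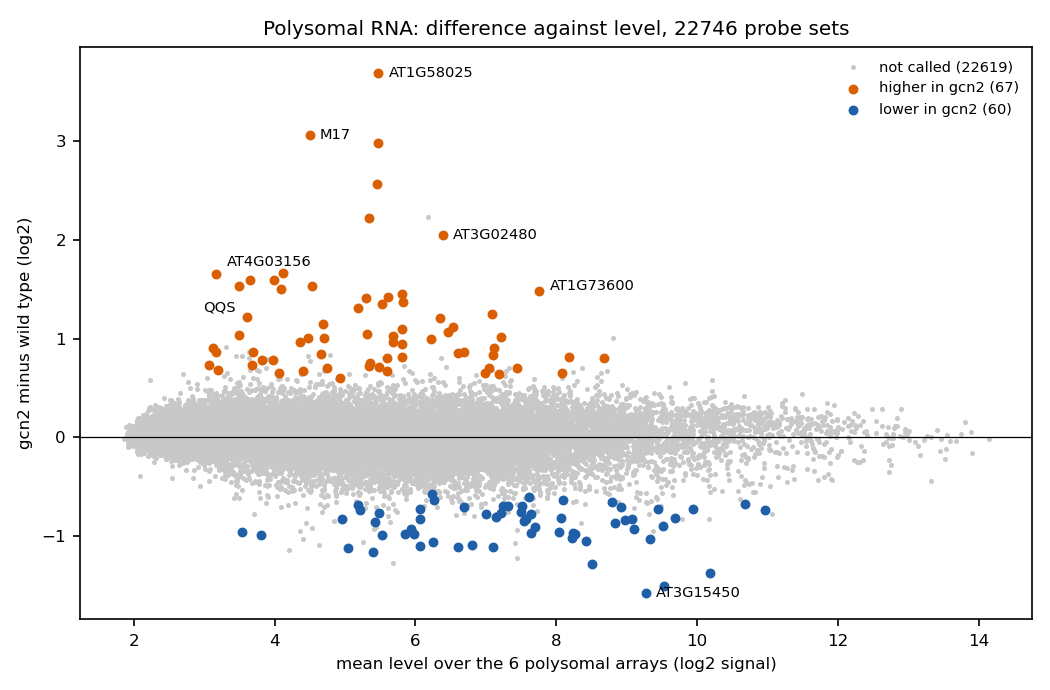
Difference between gcn2 and wild-type polysomal RNA (log2, vertical axis) against the mean level over the 6 polysomal arrays (log2 signal, horizontal axis) for 22746 probe sets. Orange points are the 67 called higher in gcn2, blue points the 60 called lower and grey points the rest; the higher ones reach 3.69 and lie mostly at low to middle signal, the lower ones reach -1.58 and extend to bright transcripts.

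The calls depended on the pairing of arrays by replicate number and on replicates 2 and 3. Without the block the same 12 arrays gave 10 calls, all of them among the 127, namely 9 higher and 1 lower. Leaving out 1 polysomal array gave 96 calls without gcn2 replicate 1 and 130 without wild-type replicate 1, but 40 and 42 without gcn2 replicate 2 or 3, and 38 and 42 without wild-type replicate 2 or 3. The median difference of the 67 higher probe sets was 0.84, 1.09 and 0.94 in pairs 1, 2 and 3, and that of the 60 lower ones was -0.57, -0.89 and -1.11. Pair 1 had the smallest difference of the 3 pairs in 49 of the 60 lower probe sets. Replicate 1 also had the highest signal within both genotypes in 41 of the 67 higher probe sets (61.2%), against 16.8% of all tested probe sets. Conversely, it had the lowest signal within both genotypes in 28 of the 60 lower probe sets (46.7%), against 17% of all. Scaling each array to its BioB and BioC controls moved the median of all probe sets to -0.23, against 0.02 as deposited, and gave 28 higher and 217 lower calls, of which 87 were among the 127. Under that scaling limma gave AT1G58025 an adjusted p of 9.74e-45 for a difference of 3.44. As deposited it gave 6.27e-07 for a larger difference of 3.69, so adjusted p-values with control scaling are not comparable with the others.

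The strongest difference was at AT1G58025, a locus without a symbol. Its polysomal signal was 6.97, 7.55 and 7.43 in gcn2 replicates 1 to 3, against 3.32, 3.63 and 3.92 in wild type. All 3 wild-type values lay near the lower quartile of the arrays and every gcn2 value was well above them. The difference was 3.69 (SE 0.26, limma adjusted p = 6.27e-07), a 12.9-fold higher signal in gcn2, and it passed under all 26 alternatives tried. The pseudogene AT1G35650 was at 4.15, 4.28 and 4.34 in gcn2 and at 2.84, 2.61 and 2.73 in wild type, a difference of 1.53 (SE 0.15, adjusted p = 4.68e-05). A second pseudogene, AT1G42705, gave 6.72, 6.43 and 6.38 in gcn2 against 5.23, 5.04 and 5.15 in wild type (difference 1.37, SE 0.16, adjusted p = 0.000289). Both were tight within each genotype and separate between them, but their probe sets carry the suffix for sequences shared by several transcripts, so the signal may come from related copies. Of 989 probe sets of annotated pseudogenes, these 2 (0.202%) were called higher, against 0.295% of all tested probe sets, and 0 were called lower. Their median was 0.06, against 0.02 over all tested probe sets. In 716 of the 989 pseudogene probe sets both genotype means lay under the lower quartile of every array, against 4787 of all 22746. The shares called therefore set mostly dim probe sets beside mostly brighter ones.

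QQS (AT3G30720), which has no known relatives in other species and acts on leaf starch, was also higher. Its signal was 4.39, 4.20 and 4.04 in gcn2 and 3.19, 2.71 and 3.07 in wild type, so that gcn2 lay above the lower quartile of all arrays and wild type below it. The difference was 1.22 (SE 0.17, adjusted p = 0.00213). AT4G03156 was at 4.38, 4.34 and 3.29 in gcn2 and 2.52, 1.99 and 2.52 in wild type, a difference of 1.66 (SE 0.23, adjusted p = 0.00205), with gcn2 replicate 3 nearer to wild type than the other gcn2 values. AT3G30200 was at 3.63, 3.69 and 3.47 in gcn2 and 2.66, 2.83 and 2.72 in wild type (difference 0.86, SE 0.13, adjusted p = 0.00397, and 0.209 with control scaling). Together with AT1G58025, AT1G35650 and AT1G12000, these loci make up a list of 6 that was drawn from total RNA results of these same plants. All 6 were called higher in polysomal RNA, with a median of 1.39, which is no independent evidence of their direction.

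M17, AT3G02480, AT2G28490, LEA18 and BGLU19 differed between replicates as well as between genotypes. M17 (AT2G41260), a late embryogenesis abundant (LEA) protein, was at 7.40, 5.63 and 5.07 in gcn2 and at 4.23, 2.58 and 2.08 in wild type. Replicate 1 was the brightest array in both genotypes, and the lowest gcn2 value still exceeded the highest wild-type value. M17 differed by 3.07 (SE 0.18, adjusted p = 1.26e-07), and without the block its adjusted p was 0.217. AT3G02480, another LEA family gene, was at 8.59, 6.94 and 6.71 in gcn2 and 6.86, 4.74 and 4.48 in wild type. Here wild-type replicate 1 lay within the gcn2 range, so the groups overlapped, while each pair differed in the same direction (difference 2.06, SE 0.16, adjusted p = 1.8e-06, and 0.696 without the block).

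AT2G28490, a cupin family seed storage protein, had 5.95, 4.04 and 4.37 in gcn2 and 4.06, 2.60 and 2.92 in wild type, with a slight overlap through wild-type replicate 1. It differed by 1.59 (SE 0.20, adjusted p = 0.000698, and 0.507 without the block). LEA18 (AT2G35300) had 6.35, 4.65 and 3.56 in gcn2 and 4.58, 2.61 and 2.84 in wild type. It differed by 1.51 (SE 0.30, adjusted p = 0.0297) and kept that call in 7 of the 12 fits that left out 1 array. BGLU19 (AT3G21370), a beta-glucosidase, had 6.76, 5.23 and 5.52 in gcn2 and 5.31, 4.34 and 3.91 in wild type, with overlap (difference 1.31, SE 0.25, adjusted p = 0.0194). These 3 transcripts also were brightest in replicate 1 of both genotypes. Outside the 15 named by size, and picked after their values were seen, LEA4-5 (AT5G06760) was higher by 1.01 (SE 0.16, adjusted p = 0.00582), and ICL (AT3G21720), the isocitrate lyase of the glyoxylate cycle, by 1.00 (SE 0.19, adjusted p = 0.0223). The list of seed storage markers had 0 measured members.

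AT1G73600 encodes a methyltransferase of phosphocholine synthesis and is one of the genes with a conserved upstream open reading frame. Its signal was 8.33, 8.62 and 8.54 in gcn2 and 7.73, 6.88 and 6.46 in wild type. The gcn2 values were close together and above all wild-type values, which spread over more than 1 log2 unit. The difference was 1.48 (SE 0.29, adjusted p = 0.0242). Its call was lost without gcn2 replicate 2 or 3 (adjusted p = 0.127 and 0.224) and without wild-type replicate 2 or 3 (adjusted p = 0.196 and 0.238). 2A6 (AT1G03410), of the 2-oxoglutarate-dependent dioxygenase family, was at 5.92, 6.08 and 6.02 in gcn2 and 4.39, 4.53 and 4.86 in wild type (difference 1.41, SE 0.16, adjusted p = 0.00032). AT1G31690, a copper amine oxidase, was at 7.11, 6.74 and 7.02 in gcn2 and 6.39, 5.58 and 5.27 in wild type (difference 1.21, SE 0.17, adjusted p = 0.00205). Neither gene overlapped between genotypes.

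**Figure D2:**
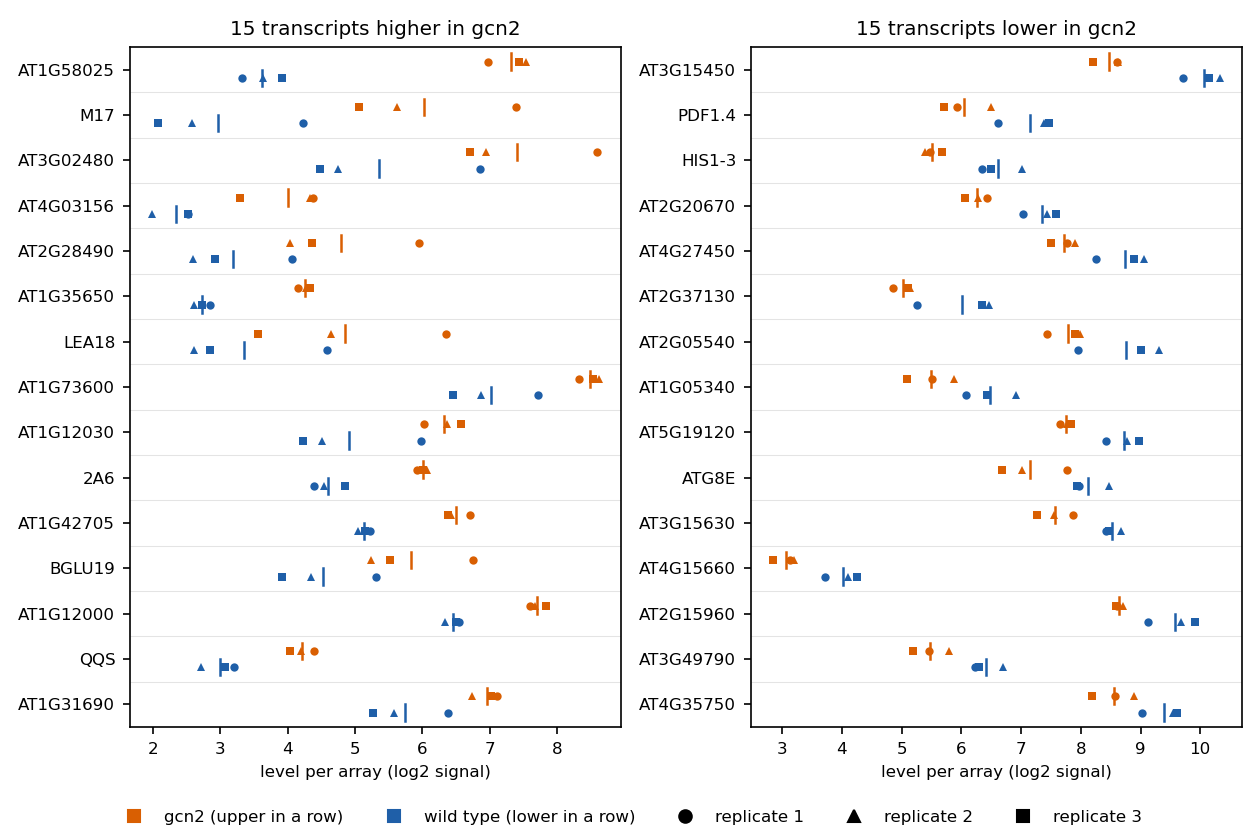
Polysomal signal on each of the 6 arrays (log2, horizontal axis) for the 15 annotated transcripts with the largest called difference in each direction; orange symbols are gcn2, blue symbols wild type, the symbol shape gives the replicate number and vertical bars are means of 3 arrays. AT1G58025 is separated by over 3 units, M17, AT3G02480, AT2G28490, LEA18 and BGLU19 are shifted upwards in replicate 1 of both genotypes, and most of the lower transcripts show their smallest gap in replicate 1.

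Among 66 called nuclear loci, 3 lay within 5 loci of another one called in the same direction, and all 3 were on chromosome 1. AT1G12000, which encodes a subunit of the pyrophosphate-dependent phosphofructokinase of glycolysis, was at 7.60, 7.68 and 7.84 in gcn2 and 6.54, 6.34 and 6.50 in wild type. It differed by 1.25 (SE 0.14, adjusted p = 0.000249) and passed under all 26 alternatives. AT1G12020 was at 5.58, 6.04 and 5.91 in gcn2 and 5.14, 5.16 and 5.08 in wild type (difference 0.71, SE 0.13, adjusted p = 0.0179). AT1G12030 was at 6.02, 6.37 and 6.58 in gcn2 and 5.98, 4.51 and 4.23 in wild type (difference 1.42, SE 0.29, adjusted p = 0.0357). In replicate 1 AT1G12030 hardly differed between the genotypes, and its call was lost without gcn2 replicate 2 or 3 (adjusted p = 0.21 and 0.295) and without wild-type replicate 2 or 3 (adjusted p = 0.245 and 0.31). AT1G12010, between AT1G12000 and AT1G12020, differed by 0.12 (SE 0.13, adjusted p = 0.832). It averaged 2.92 in gcn2 and 2.81 in wild type, under the lower quartile of every array, so a change there could hardly be seen. With 8 measured loci on either side, 20 loci were compared, and the 17 not called ran from -0.56 to 0.29. Among them AT1G11970, AT1G11990, AT1G12070, AT1G12130 and AT1G12150 were likewise under that quartile in both genotypes. In total RNA AT1G12000 differed by 1.07 and was called, while AT1G12020 at 0.56 and AT1G12030 at -0.13 were not. How many called loci would lie this close by chance was not tested.

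**Figure D3:**
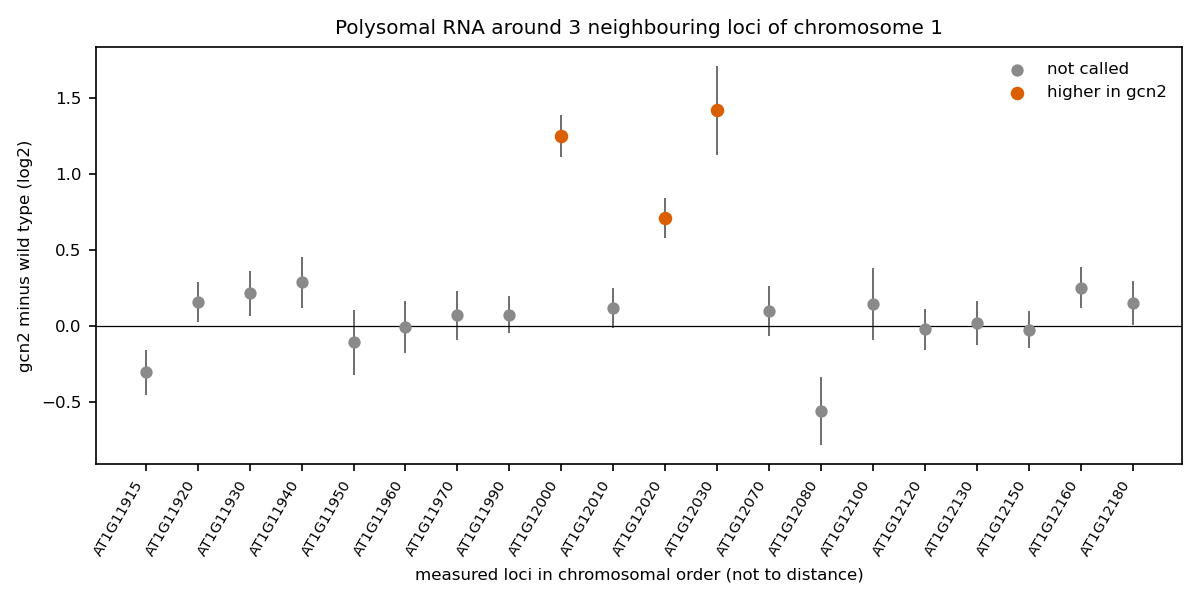
Difference between gcn2 and wild-type polysomal RNA (log2, vertical axis, bars are moderated SE) for 20 measured loci in their order on chromosome 1. AT1G12000, AT1G12020 and AT1G12030, in orange, stand at 0.71 to 1.42, and AT1G12010 between them is at 0.12.

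Transcripts that were lower in gcn2 changed by less. AT3G15450, of the aluminium-induced protein family, had the largest drop among annotated transcripts. Its signal was 8.61, 8.63 and 8.20 in gcn2, against 9.70, 10.33 and 10.15 in wild type, with more than 1 unit between the nearest values of the genotypes. The difference was -1.58 (SE 0.18, adjusted p = 0.00032), 2.99-fold lower in gcn2, and it was the only lower transcript that also passed without the block (adjusted p = 0.0318). AT4G27450, of the same family, was at 7.77, 7.90 and 7.50 in gcn2 and 8.26, 9.06 and 8.90 in wild type (difference -1.02, SE 0.18, adjusted p = 0.0111). Its groups did not overlap, and the gap was narrowest in pair 1.

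HIS1-3 (AT2G18050), a linker histone known to be induced by drought, was at 5.47, 5.39 and 5.68 in gcn2 and 6.35, 7.01 and 6.50 in wild type. All gcn2 values were below all wild-type values, and the difference was -1.10 (SE 0.18, adjusted p = 0.00824). PDF1.4 (AT1G19610), a member of the plant defensin family, was at 5.93, 6.49 and 5.71 in gcn2 and 6.61, 7.38 and 7.47 in wild type (difference -1.11, SE 0.19, adjusted p = 0.0116). AT2G37130, a secreted peroxidase, was at 4.85, 5.14 and 5.10 in gcn2 and 5.25, 6.46 and 6.34 in wild type (difference -0.99, SE 0.17, adjusted p = 0.0119). In the peroxidase the wild-type value of replicate 1 was close to gcn2 and the other 2 were more than 1 unit higher. AT4G15660, a glutaredoxin, was at 3.13, 3.20 and 2.85 in gcn2 and 3.71, 4.10 and 4.25 in wild type (difference -0.96, SE 0.19, adjusted p = 0.0255), with gcn2 under the lower quartile of every array. AT5G19120, of the aspartyl protease family, was at 7.65, 7.78 and 7.83 in gcn2 and 8.42, 8.77 and 8.98 in wild type (difference -0.97, SE 0.15, adjusted p = 0.0037).

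The other 8 of the 15 named lower transcripts included ATG8E, described below, AT2G05540, a glycine-rich protein, at -0.98, AT4G35750, of the SEC14 family, at -0.84, and AT2G20670, AT1G05340, AT3G15630, AT2G15960 and AT3G49790 at -1.10, -0.98, -0.96, -0.94 and -0.93. The replicates of AT2G05540 overlapped between genotypes, and those of the other 14 named lower transcripts did not. Among the 15 named higher transcripts 11 kept their call in all 12 fits that left out 1 fraction array, and among the 15 lower ones 2 did, AT3G15450 and AT5G19120. In the fits without gcn2 replicate 2 or 3, 15 and 14 of the 30 named transcripts passed, and 14 passed without wild-type replicate 2 and 14 without wild-type replicate 3. Without the block 6 of the 15 higher and 1 of the 15 lower passed.

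Of the probe sets without an annotated gene, the 2 with the largest differences in each direction were of the same order as the named transcripts. Probe set 249082_at was at 8.17, 6.15 and 6.55 in gcn2 and 4.97, 3.26 and 3.70 in wild type (difference 2.98, SE 0.26, adjusted p = 1.01e-05), and 253767_at was at 7.71, 6.32 and 6.18 in gcn2 and 4.66, 3.97 and 3.88 in wild type (difference 2.57, SE 0.16, adjusted p = 1.42e-07). Probe sets 253161_at and 267461_at differed by -1.51 (SE 0.19, adjusted p = 0.000698) and -1.37 (SE 0.15, adjusted p = 0.00026), and all 4 had groups that did not overlap.

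Of 24 loci listed for subunits of eIF2 and its exchange factor eIF2B and for GCN2 regulators, 11 were measured. Among these 0 were called higher and 0 lower, and the differences ran from -0.11 to 0.21 with a median of 0.11. Over all tested probe sets 0.558% were called, so 0 calls among so few genes does not set the list apart. As deposited 9 of the 11 were positive, and with control scaling all 11 were negative. Their median under that scaling was -0.15, beside -0.23 over all probe sets. AT2G40290, a gene for the alpha subunit of eIF2, was at 7.98, 7.91 and 7.54 in gcn2 and at 7.77, 7.61 and 7.43 in wild type, with overlap (difference 0.21, SE 0.12, adjusted p = 0.586). AT3G07300, for an eIF2B subunit, differed by -0.11 (SE 0.15, adjusted p = 0.868). Of 11 measured translation factors 0 were called, with a median of 0.00 and extremes of -0.44 for AT5G54940, of the eIF1 family, and 0.53 for AT5G12110, an exchange subunit of elongation factor 1 (adjusted p = 0.303 and 0.136).

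Of 16 measured amino acid biosynthesis genes none passed the limma test, and 13 had a positive difference. Their median was 0.34, against 0.02 over all tested probe sets. AT3G23940, the dihydroxyacid dehydratase of branched-chain amino acid synthesis, was at 7.94, 7.96 and 8.06 in gcn2 and 7.45, 7.30 and 7.43 in wild type. The groups did not overlap, and the difference of 0.59 (SE 0.13) had an adjusted p of 0.0544 as deposited. With median centring it passed (adjusted p = 0.0432), the only member to do so, and with control scaling the adjusted p was 0.524. OTC (AT1G75330), the ornithine carbamoyltransferase of arginine synthesis, differed by 0.45 (adjusted p = 0.172), and AT1G14810, the aspartate semialdehyde dehydrogenase, by 0.41 (adjusted p = 0.194). AT2G31810, a regulatory subunit of acetolactate synthase, had the opposite sign, -0.41 (adjusted p = 0.253). The median of the list was 0.07, 0.48 and 0.37 in pairs 1, 2 and 3, and 0.09 with control scaling, under which the median of all probe sets was -0.23.

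Of 8 measured genes with conserved upstream open reading frames, AT1G73600 was called higher and 0 were called lower. Over all 22746 tested probe sets 0.295% were called higher, 0.264% were called lower and 10150 were negative. A single call in so short a list does not set it apart. The other 7 listed genes ran from -0.42 to 0.28, and 6 of them were negative. Among these, bZIP44, a transcription factor whose upstream frame responds to sucrose, differed by -0.42 (adjusted p = 0.212), and SAMDC, the S-adenosylmethionine decarboxylase of polyamine synthesis, by -0.33 (adjusted p = 0.326). PMEAMT, a methyltransferase of the same family as AT1G73600, differed by 0.28 (adjusted p = 0.575).

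Autophagy genes had 17 measured members, and over all tested probe sets 0.264% were called lower. ATG8E (AT2G45170), one of the ubiquitin-like proteins that are attached to autophagosome membranes, was the only one called. It was at 7.76, 7.01 and 6.68 in gcn2 and 7.97, 8.47 and 7.93 in wild type. The genotypes did not overlap, but pair 1 differed little, and the difference was -0.97 (SE 0.19, adjusted p = 0.0229). Its call was lost without gcn2 replicate 2 or 3 (adjusted p = 0.223 and 0.188) and without wild-type replicate 2 or 3 (adjusted p = 0.198 and 0.229). The related ATG8F, APG8A and ATG8B differed by -0.53, -0.45 and -0.40 (adjusted p = 0.111, 0.225 and 0.307). All 17 members were negative, with a median of -0.25, against a median of 0.02 and 10150 negative of 22746 over all tested probe sets. With median centring 16 and with quantile normalization 15 of the 17 were negative. The median of the list was -0.01, -0.16 and -0.41 in pairs 1, 2 and 3. In non-polysomal RNA the list had a median of -0.09 and in total RNA of -0.03.

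Of 69 measured plastid genes, psbJ, a small subunit of photosystem II, was called lower and 0 were called higher. It was at 7.56, 8.91 and 9.52 in gcn2 and at 8.20, 10.08 and 10.21 in wild type, so that the replicates spread far within both genotypes and overlapped, while each pair differed downwards (difference -0.83, SE 0.15, adjusted p = 0.0119). Over all 22746 tested probe sets 10150 were negative and 0.264% were called lower, and of the 69 plastid genes 59 were negative. The plastid median was -0.32, with -0.27, -0.66 and -0.02 in pairs 1, 2 and 3. In 0 of the plastid genes were the genotypes without overlap, against 13.5% of all tested probe sets. The same genes had medians of 0.18 in non-polysomal and 0.11 in total RNA, of the opposite sign. With control scaling all 69 were negative, 11 were called lower and the median was -0.58, beside the median of -0.23 over all probe sets under that scaling. The 16 measured mitochondrial genes had 0 calls and a median of 0.04. Nuclear photosynthesis genes had 9 measured members, of which LHCB4.3 (AT2G40100), a minor antenna protein of photosystem II, was called higher. It was at 8.71, 8.54 and 8.51 in gcn2 and at 8.02, 7.53 and 7.77 in wild type (difference 0.81, SE 0.14, adjusted p = 0.0105), and the other 8 ran from -0.14 to 0.10. The call of LHCB4.3 was lost with control scaling (difference 0.56, adjusted p = 0.267). Over all tested probe sets 0.295% were called higher, and a single call does not set so short a list apart.

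Among 7 measured cold and dehydration genes, COR15A (AT2G42540), a cold-induced protein of the chloroplast, was called higher. It was at 5.53, 5.39 and 4.89 in gcn2 and 4.73, 3.78 and 3.85 in wild type, without overlap (difference 1.15, SE 0.15, adjusted p = 0.00114). The members had mixed signs: LTI30, a dehydrin, differed by 0.96 and COR15B by 0.67, whereas DI19, a drought-induced zinc-finger protein, differed by -0.78 (adjusted p = 0.0711, 0.136 and 0.0533). With control scaling, which moved the median of all probe sets to -0.23, DI19 passed as lower in gcn2 (adjusted p = 0.00246). Among 13 measured histones only HIS1-3 was called, and the median was 0.03. Over all tested probe sets 0.295% were called higher and 0.264% lower, so the single calls of COR15A and HIS1-3 do not set their lists apart. The unfolded protein response (7 measured) and heat shock (8 measured) lists had 0 calls, with medians of 0.01 and 0.21.

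The 6 measured glucosinolate genes had 0 calls and a median of 0.13, of which GSTU20 was at 0.58 (adjusted p = 0.0957). They were all positive as deposited, but 4 of the 6 were negative with control scaling. The 4 measured anthocyanin and flavonoid genes had 0 calls and a median of 0.44, and their largest difference was 0.72 for DFR, the dihydroflavonol reductase (adjusted p = 0.23). The 5 measured root markers had 0 calls, with differences of -0.22 to 0.34. Of these, PYK10, a beta-glucosidase of root endoplasmic reticulum bodies, averaged 10.0 in gcn2 and 10.2 in wild type, and AGL42 averaged 2.45 in gcn2 and 2.67 in wild type, near background. Jasmonate, defence and reactive oxygen genes had 2, 1 and 3 measured members and 0 calls. With control scaling THI2.1, a thionin of the jasmonate list, passed as lower in gcn2 (difference -0.92, adjusted p = 0.0131). As deposited its adjusted p was 0.461, and control scaling moved the median of all probe sets to -0.23.

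**Figure D4:**
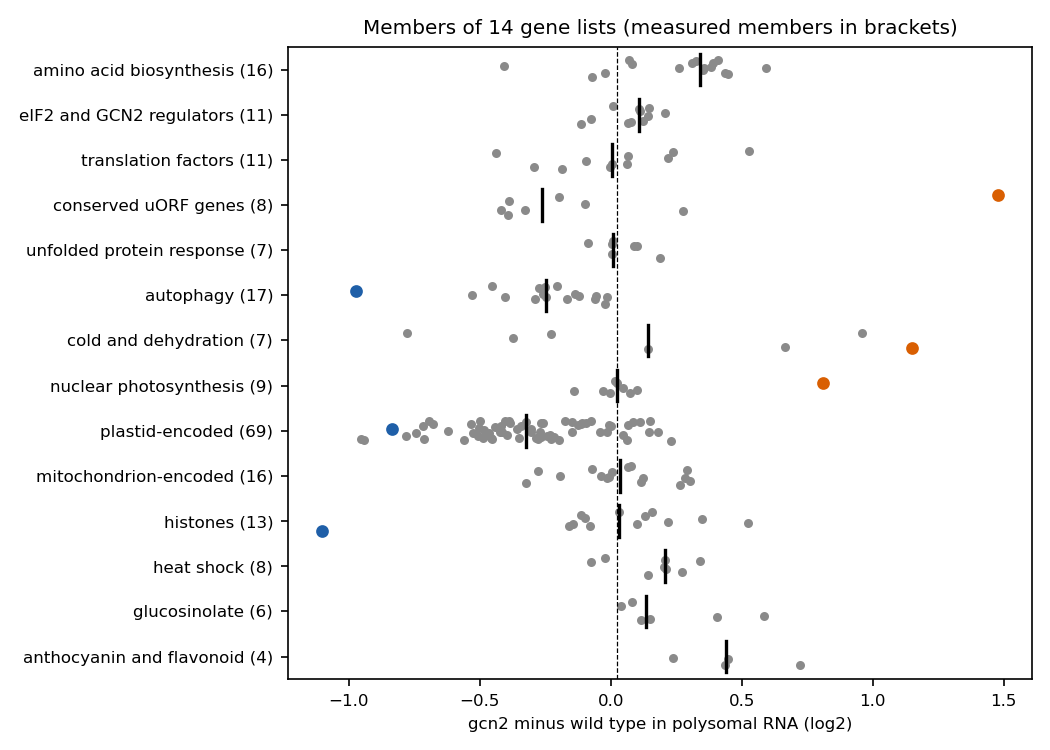
Difference between gcn2 and wild-type polysomal RNA (log2, horizontal axis) for the measured members of 14 gene lists; orange and blue points passed the test as higher or lower in gcn2, grey points did not, black bars are list medians and the dashed line is the median of all tested probe sets (0.02). All 17 autophagy genes lie to the left of 0, and amino acid biosynthesis has a median of 0.34 with 0 calls.

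The called transcripts were then set beside their differences in the other RNA types of the same genotypes. In total RNA 566 probe sets had an unadjusted limma p under 0.05, fewer than the about 1137 expected by chance. The non-polysomal comparison had 429 calls (1.89% of tested probe sets) and the total RNA comparison 8 (0.0352%). These counts come from unlike fits, since 127 and 429 rest on the 12 fraction arrays with the block and 8 on 18 arrays without it. On 18 arrays without the block the polysomal comparison had 5 calls beside the 8 of total RNA, and with the block 15 beside 8, so the counts do not show that total RNA differed less. Of the 127 polysomal calls, 59 were also called in non-polysomal RNA, all with the same sign, which is 46.5% of the polysomal and 13.8% of the non-polysomal calls. The polysomal and non-polysomal arrays were fitted together and share one estimate of the spread. In total RNA 7 of the 127 were called (5.51%, and 87.5% of the total RNA calls), all 7 higher. Of the 67 higher probe sets 49 had a positive difference in total RNA, and of the 60 lower ones 20 had a negative one. Together 69 of the 127 (54.3%) shared their sign with total RNA, against 46.6% of all tested probe sets, and 124 (97.6%) shared it with non-polysomal RNA, against 56.0%.

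**Figure D5:**
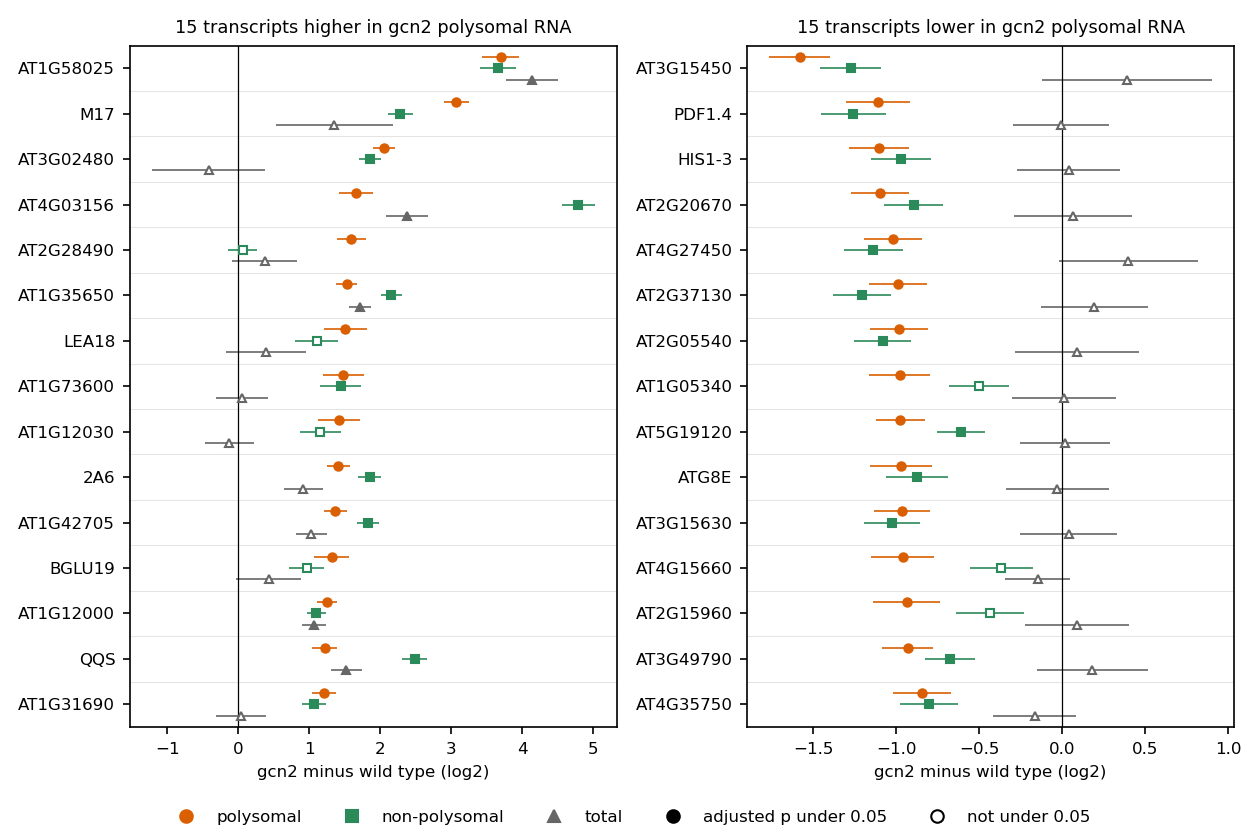
Difference between gcn2 and wild type (log2, horizontal axis, bars are moderated SE) in polysomal (orange), non-polysomal (green) and total RNA (grey) for the 15 named transcripts in each direction; filled symbols have an adjusted p under 0.05. The 15 lower transcripts have total RNA differences of -0.17 to 0.40, none called, and 12 of them were called lower in non-polysomal RNA.

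Differences in total RNA varied among the named transcripts. AT1G58025, with a polysomal difference of 3.69, differed by 3.66 in non-polysomal and by 4.14 in total RNA (adjusted p = 4.33e-07 and 2.76e-05), and AT1G12000 by 1.10 and 1.07 (adjusted p = 0.00074 and 0.0157). These values were of similar size in the 3 kinds of RNA. M17 differed by 2.28 in non-polysomal RNA (adjusted p = 2e-06) and by 1.35 in total RNA, which did not pass. AT3G02480 differed by 1.86 in non-polysomal RNA (adjusted p = 4.1e-06) and by -0.42 in total RNA, not called. AT1G73600 differed by 1.44 and 0.05 (non-polysomal adjusted p = 0.02, total not called). AT2G28490 differed by 0.06 and 0.37 and COR15A by 0.14 and 0.01, neither of them called in those RNA types. AT3G15450 differed by -1.27 in non-polysomal RNA (adjusted p = 0.00278) and by 0.39 in total RNA, not called.

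The difference between these comparisons was tested itself. The polysomal minus total interaction was fitted on 18 arrays without the block, where the polysomal difference itself had 5 calls. The interaction had 0 calls in limma (0% of 22746 probe sets), and 0 in each of its 9 alternatives, most of them also unblocked. At an unadjusted p under 0.05 it had 926, fewer than the about 1137 expected by chance. For no transcript was the polysomal difference shown to differ from the total RNA difference. With so few polysomal calls in that fit, the test also cannot show that the differences were equal. The polysomal minus non-polysomal interaction had 3 calls (0.0132%, with 2038 at an unadjusted p under 0.05). AT4G03156 rose in both fractions, by 1.66 in polysomal and 4.79 in non-polysomal RNA (adjusted p = 7.53e-09), and the interaction was -3.13 (SE 0.33). AT3G30200 rose by 0.86 in polysomal and 2.26 in non-polysomal RNA, with an interaction of -1.40 (SE 0.19). Probe set 253767_at rose by 2.57 in polysomal and 1.13 in non-polysomal RNA, with an interaction of 1.44 (SE 0.22). Among annotated polysomal calls, the largest non-polysomal differences after those of AT4G03156 (4.79) and AT1G58025 (3.66) were 2.49 for QQS and 2.34 for ICL, beside 1.22 and 1.00 in polysomal RNA.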

How the data were processed

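RNA levels were measured on 18 arrays in 6 groups of 3, of which 6 are the polysomal arrays described here. Values are log2 signals per probe set as the authors deposited them. The submitters' processing notes name RMA, affy and MAS5 with no role or version, and the sources used here do not give the background and summarization steps. Groups and replicate numbers came from the sample titles. Of 22810 probe sets, 64 controls were left out and 22746 tested. Names came from the platform annotation (13513 with 1 gene, 503 with several, 8730 not listed), of which 13436 matched a RefSeq gene table of TAIR10.1, used for names and gene order. No pair of the 153 pairs of arrays held identical values.

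The comparison was a contrast in limma 3.58.1 under R 4.3.3 on 12 fraction arrays in 4 groups with the replicate number as a block (6 residual degrees of freedom, prior 10.5). Same-numbered polysomal arrays of gcn2 and wild type had deviations correlated at 0.578, 0.226 and 0.583, and other pairs at -0.583 to -0.026. Deviations from a group mean cancel within the group, so the negative values of other pairs are no separate support. The numbers were taken to pair the arrays on the same-number values, the weakest of which was that of replicate 2. Total RNA and its interaction were fitted on 18 arrays without a block (12 residual degrees of freedom), since same-numbered gcn2 total arrays were paired with 0 of the 4 fraction groups (correlations of -0.168 to 0.346). Groups counted as paired if all 3 same-number correlations were above 0.1. The wild-type total arrays were paired with 3 of the 4 fraction groups (correlations of 0.001 to 0.404). Errors of levels are SD over 3 arrays and errors of differences moderated SE. The number of arrays limits precision, and with 3 against 3 a permutation test that ignores the pairs cannot go below 0.1. Shuffling within the 3 pairs, as the block would ask, allows fewer arrangements and so has a higher floor. The fit was tested on simulated data drawn from the same blocked model, which cannot show whether the block is right for these arrays.

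Named are the 15 annotated genes with the largest called change in each direction and the same sign in 3 pairs, up to 2 unannotated probe sets a direction and up to 4 members of a list by moderated statistic. For loci with several probe sets the brightest over all arrays was used. Members and lists were chosen with earlier results of these data known. A list holds only those loci that a probe set measures alone, which leaves most lists incomplete, and the nitrate and seed marker lists had 0 measured members. Alternatives changed the block, the arrays, the normalization, a filter on dim probe sets, the variance prior, array weights and left out each array. Sequences were not used here.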

Additional observations from a re-analysis of the deposited data

Results flagged for a closer look

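In 3 probe sets the genotype effect differed between the polysomal and the non-polysomal fraction by limma's interaction test at an adjusted p under 0.05. AT4G03156 differed by -3.13 (polysomal minus non-polysomal), AT3G30200 by -1.40, and the unannotated probe set 253767_at by 1.44. The wild-type means of AT4G03156 and AT3G30200 lay under the lower quartile of every array in polysomal RNA, and the part of that low signal in the interaction was not tested. Without the replicate block 0 probe sets passed.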

How the results depend on the processing

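The count of 127 polysomal calls (67 higher, 60 lower) stayed within 1.5 times under quantile normalization (116), median centring (122), without dim probe sets (131, 12307 tested) and with a trended and robust prior (174). The balance of directions changed more: 49 higher and 82 lower without dim probe sets, and 76 and 98 with that prior. Without the replicate block the 12 fraction arrays gave 10 calls, and the 6 polysomal arrays alone gave 5 without and 256 with the block. All 18 arrays gave 15 with and 5 without the block. BioB and BioC centring gave 245 (28 higher, 217 lower), and array weights gave 666. Leaving out each fraction array in turn gave 38 to 165 calls. Leaving out all 4 fraction arrays of a replicate number, chosen after seeing the data, gave 156 without pair 1, 14 without pair 2 and 31 without pair 3, where fewer arrays and residual degrees of freedom enter. No named transcript changed sign, and of the 127 calls 29 passed in all 12 fits without 1 array. AT1G58025, AT1G42705 and AT1G12000 passed in all 26 alternatives, and AT1G35650 in the 25 in which it was tested. Of the 30 named transcripts 7 passed without the block. The polysomal minus non-polysomal interaction (3 calls) gave 0 calls in limma without the replicate block. There 1065 probe sets had an unadjusted p under 0.05, fewer than the about 1137 expected by chance. The same interaction gave 2 calls after quantile normalization, 2 when dim probe sets were left out, and 1 to 4 with a polysomal array left out. The total RNA comparison gave 8 calls without the block, and 8 with it in a fit added after seeing the data. The polysomal minus total interaction gave 0 under each alternative run. The causes of these changes were not tested. Signal under the lower quartile of the arrays limits the fold changes of 11 of the 67 higher probe sets.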
